A study of Mus musculus with 21 samples.

Results

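The comparison described here is between the colon of transgenic mice treated with 1,25-dihydroxyvitamin D3 (1,25D3) and the colon of knockout (KO) mice without vitamin D receptor (VDR) in the intestinal epithelium. It was chosen by the group labels of the deposited colon table that holds both groups, and comprises 7 of the 21 RNA-seq libraries of the series, 3 treated and 4 KO. The KO mice were labelled Villin-CreERT2 VDR f/f, a genotype in which a tamoxifen-inducible Cre recombinase under the villin promoter removes floxed Vdr from epithelial cells. They were male, received no treatment, and were 9 weeks old in the first library and 11 weeks old in the other 3. The treated mice were labelled CDX2-VDR transgenic: they lack mouse VDR throughout and carry human VDR in the distal intestine. They were male, 9 weeks old, and had 3 injections of 1,25D3 at 1 ng per g of body weight, at 48, 24 and 6 h before the end. The strain is given as C57BL6J for both. The injected group was set against a KO group without vehicle injection, so that injection, 1,25D3, the human transgene, the way in which mouse VDR was lost, tamoxifen if only the KO mice had it, and age cannot be told apart. Uninjected CDX2-VDR transgenic colon (4 libraries, 3 labelled female and 1 male, 9 or 10 weeks old) and the ileum of KO (4 libraries) and treated (3 libraries) mice of the same genotypes, sexes and ages are used below for values set beside these. No label names an animal, and the p-values therefore reflect only how these samples spread, which may be technical.

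VDR is a nuclear receptor that, bound to 1,25D3, pairs with a retinoid X receptor and binds DNA at vitamin D response elements. In the intestine it is known for driving transcellular calcium absorption: calcium enters from the lumen through Trpv6, is carried through the cell by S100g (calbindin-D9k), and leaves across the basolateral membrane through the pump encoded by Atp2b1. Cyp24a1, the 24-hydroxylase that inactivates 1,25D3, is the classical target that limits the signal. In the colon 1,25D3 is also known to act on immune and barrier genes.

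Mouse Vdr (15:97684856-97741061, mm9) stood at 24.2, 24.9, 22.1 and 22.2 FPKM in KO colon and at 39.9, 20.7 and 31.9 in treated colon (log2 difference 0.34, SE 0.225, adjusted p = 0.794). The groups overlapped. Gene-level FPKM cannot show loss of the floxed part of Vdr alone, and transgene reads can map to mouse Vdr, so this gene does not check the genotype labels. Rxra, its dimer partner, also overlapped between the groups (log2 0.12, SE 0.299). The male label was borne out by Y-linked Ddx3y, at 12.5 to 21.3 FPKM in the 7 libraries, and by Xist, at most 0.166. Depth estimated from the steps of the FPKM values was 27.7 to 34.9 M reads in KO and 12.8 to 36.6 M in treated libraries, the lowest in Colon treated 2. Between 16278 and 16931 genes were above 0 in each library.

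A total of 12505 genes averaged 1 FPKM or more across these libraries and were tested by limma on log2(FPKM + 0.5), the scale of every log2 difference below. A gene averaging under 1 FPKM in KO colon reached this level through treated colon alone, and so could pass only as higher. Among the genes described below this held for Trpv6, Cyp24a1, 1700034O15Rik, Abhd1, AI506816, Plcd1, Spp1, Retnlg, Cthrc1 and Ifitm6. At an adjusted p under 0.05, 37 genes passed (0.296%), of which 28 were higher (0.224%) and 9 lower (0.072%) in treated colon. None of the 37 had overlapping groups. Across all genes tested, 520 (4.16%) lay wholly higher and 486 (3.89%) wholly lower in treated colon, and 914 (7.31%) had an unadjusted p under 0.05. The genes nearest to the level filter were Acot6, inside at a mean of 1.0004 FPKM, and 1700020O03Rik, outside at 0.9998. Calls depended on the KO libraries: without Colon KO 1, 2, 3 or 4 the count was 17, 17, 24 or 19. They depended on the treated libraries too: without Colon treated 1, 2 or 4, 26, 31 or 28 of the 37 were kept. With age as a covariate the difference is that of the treated libraries from Colon KO 1 alone, the 1 KO library of their age, and its spread is assumed from the other libraries. The count was then 3, namely Trpv6, S100g and 5033404E19Rik.

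**Figure D1:**
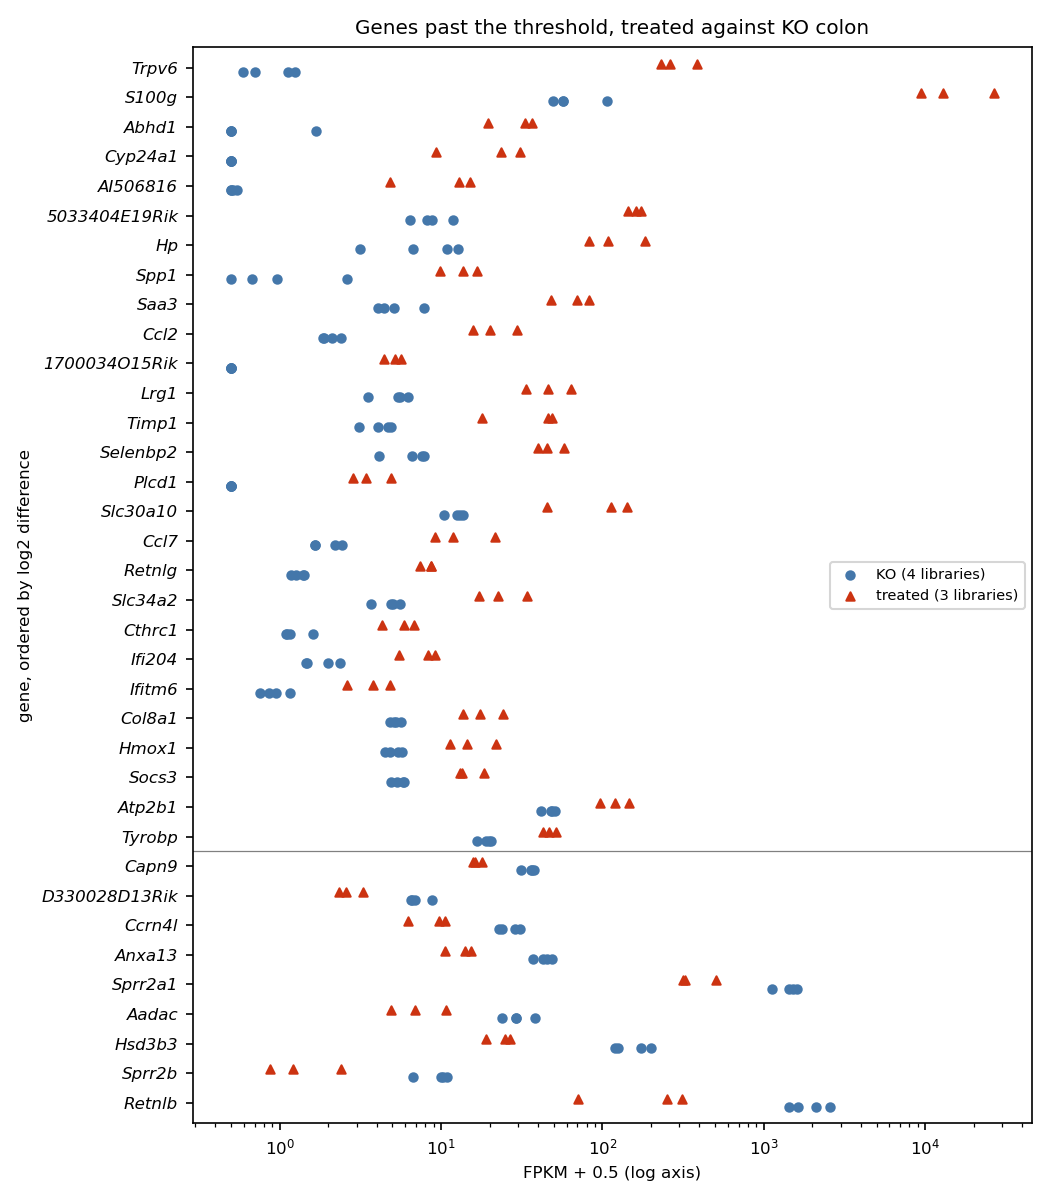
FPKM plus 0.5 on a log axis for 36 of the 37 genes that passed, in the 4 KO libraries (circles) and the 3 treated libraries (triangles), ordered by log2 difference; the grey line separates the 27 higher genes shown from the 9 lower ones. In every row the circles and triangles are separate, with the widest gaps for Trpv6 and S100g.

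The 2 largest changes were those of the calcium transport genes Trpv6 and S100g. Trpv6, the apical calcium channel (6:41570620-41586404, mm9, minus strand), was at 0.210, 0.741, 0.0971 and 0.624 FPKM in KO colon and at 231, 388 and 263 FPKM in treated colon. All 4 KO values lay near the added 0.5, and the log2 difference was 8.36 (SE 0.307, adjusted p = 3.01e-05). Trpv6 reached the level filter through treated colon alone and could pass only as higher. S100g (X:159399924-159402531, minus strand, inside the span of Ctps2 on the other strand) was at 48.7, 56.6, 106.6 and 57.0 FPKM in KO and at 12980, 26660 and 9381 FPKM in treated colon. It was thus readily measured in KO colon and higher by 7.84 on the log2 scale in treated colon (SE 0.406, adjusted p = 0.000163), whereas Ctps2 did not pass (log2 0.24, adjusted p = 0.798). Atp2b1 was at 50.6, 41.5, 47.9 and 48.2 FPKM in KO and at 120, 96.8 and 145 in treated colon. Its rise of 1.34 on the log2 scale (SE 0.183, adjusted p = 0.0298) was the smallest of the calcium genes that passed, and it passed in only 2 of the 7 fits that left out 1 library. Of the 5 calcium transport genes tested these 3 rose and none fell. Stc2, a stanniocalcin, was lower in each treated library but did not pass (log2 -0.69, SE 0.206, adjusted p = 0.421). The submitters measured Trpv6, S100g, Cyp24a1, Slc30a10, Slc37a2 and Trpv5 by qPCR, per the labels' protocols. Of the 5 tested here 4 rose, and Slc37a2, a sugar-phosphate exchanger, overlapped between the groups (log2 -0.20, SE 0.237, adjusted p = 0.858). A panel picked by the submitters is not independent evidence of a direction.

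Cyp24a1 (2:170308208-170322645, minus strand) was 0 in every KO library and was read at 30.4, 23.0 and 8.84 FPKM in treated colon (SE 0.386 on the log2 scale, adjusted p = 0.00114). The log2 difference of 5.24 depends on the added 0.5, since KO is at 0, and Cyp24a1 reached the level filter through treated colon alone. Its annotated span overlaps the start of Pfdn4, a prefoldin subunit on the other strand, at 16.4 to 23.4 FPKM in 6 libraries and 202 in Colon treated 2. Without knowledge of strand in the counting, reads of the overlap cannot be assigned to either gene. Of the 11 tested genes of the list of VDR partners and hydroxylases, Cyp24a1 alone rose and none fell. The list's median log2 difference was -0.01, the same as over all genes.

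Another gene listed at 0 in KO colon lies beside Trpv6. 1700034O15Rik (6:41634430-41635716, plus strand, 48.0 kb from Trpv6; RefSeq symbol Llcfc1) was 0 in every KO library and reached 5.15, 4.71 and 3.91 FPKM in treated colon (adjusted p = 0.00104). It reached the level filter through treated colon alone and could pass only as higher. The genes between and around the pair were read after the pair had been noticed. Trpv5, the calcium channel between them (6:41602172-41630768), was under the level filter, at 0 in KO and at 0.670, 0.197 and 0.671 FPKM in treated colon. An exact two-sided permutation test of its mean gave p = 0.0286, the smallest possible with the 35 arrangements of 3 against 4. Kel, the Kell blood group gene on the far side of 1700034O15Rik, was likewise at 0 in KO and at 0.424, 0.651 and 0.237 FPKM in treated colon. Ephb6, an ephrin receptor 0.1 kb from Trpv6 on its other side, was at 0.958 FPKM on average in KO and 2.59 in treated colon with separate groups, and did not pass (log2 1.06, adjusted p = 0.446). Prss2, a trypsinogen 95.5 kb away, overlapped between the groups (log2 0.13). All 4 genes from Trpv6 to Kel were thus at or near 0 in KO colon and above 0 in each treated library, with Trpv6 far above the rest. The first 250 bases upstream of Trpv6, 1700034O15Rik and S100g are shown because Trpv6 and S100g had the widest differences and 1700034O15Rik lies beside Trpv6. The sequences are RefSeq's on GRCm38.p6, read 5′ to 3′ on the strand of the gene, and end at the base before the annotated start. Capitals mark the 15 bases nearest to a vitamin D response element of the DR3 type, a direct repeat of the nuclear receptor hexamer with a spacer of 3 bases, on either strand.
Trpv6, chr6:41636406-41636655, minus strand: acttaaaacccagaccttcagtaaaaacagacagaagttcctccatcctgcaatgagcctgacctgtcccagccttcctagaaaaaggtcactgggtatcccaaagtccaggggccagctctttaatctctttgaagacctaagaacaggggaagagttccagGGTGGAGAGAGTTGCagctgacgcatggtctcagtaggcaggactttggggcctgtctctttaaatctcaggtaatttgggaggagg
1700034O15Rik, chr6:41684181-41684430, plus strand: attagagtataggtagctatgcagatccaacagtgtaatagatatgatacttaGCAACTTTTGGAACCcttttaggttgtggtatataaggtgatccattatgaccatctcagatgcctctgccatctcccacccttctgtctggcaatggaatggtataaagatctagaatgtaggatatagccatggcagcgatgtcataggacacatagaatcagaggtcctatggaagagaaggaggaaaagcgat
S100g, chrX:162964600-162964849, minus strand: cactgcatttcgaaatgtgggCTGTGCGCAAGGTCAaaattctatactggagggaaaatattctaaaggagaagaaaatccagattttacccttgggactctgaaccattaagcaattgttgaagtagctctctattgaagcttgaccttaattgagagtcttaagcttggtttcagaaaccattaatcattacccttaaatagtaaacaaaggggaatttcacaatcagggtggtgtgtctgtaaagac
The best match in the Trpv6 window fitted 10 of the 12 bases of the repeat, at -87 to -73 from the start on the gene's strand. That of 1700034O15Rik fitted 10, at -197 to -183 on the opposite strand, and that of S100g 9, at -229 to -215.

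Such matches are common in windows of this length. In the RefSeq table of 27025 genes, with 250 bases before the start and 50 from it on, 51.7% of genes held a match with at most 2 mismatches and 6.9% one with at most 1. Of the 37 genes that passed, 25 had an entry. Among the 18 that rose, 12 (66.7%) held a match with at most 2 mismatches and 2 (11.1%), Plcd1 and Ifitm6, one with at most 1. Among the 7 that fell the counts were 2 (28.6%) and 0. The STAT element TTCNNNGAA, which reads the same on both strands, was found in 9.6% of all genes. It was found in 4 of the 18 genes that rose (22.2%), Trpv6, Ifitm6 and Socs3 among them, and in 0 of the 7 that fell. These shares are a description, given with no test. Its copy in Trpv6 is TTCCTAGAA, at -176, and that in Socs3, a gene known as a target of Stat3, is TTCTTAGAA, at -154.

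Among transporters of other minerals, 1 phosphate and 1 manganese transporter rose. Slc34a2, a sodium-phosphate cotransporter (5:53429321-53462903), was at 4.57, 5.05, 4.40 and 3.17 FPKM in KO and at 22.2, 33.9 and 16.8 in treated colon (log2 2.33, SE 0.26, adjusted p = 0.0118). The other 3 of 4 phosphate transport genes did not pass. Slc20a1, another sodium-phosphate cotransporter, ran the other way without passing, at 47.5 to 109 FPKM in KO and 20.8 to 55.5 in treated colon (log2 -1.25, SE 0.415, adjusted p = 0.504). Slc30a10, a manganese exporter (1:187278727-187292641), was at 13.1, 9.96, 12.7 and 12.1 FPKM in KO and at 112, 44.8 and 142 in treated colon (log2 2.86, SE 0.363, adjusted p = 0.0201). Its treated libraries were spread over 3-fold, and the call was kept in 2 of the 7 fits that left out 1 library. The other 15 of 16 zinc, manganese and iron genes did not pass. The nearest was the metallothionein Mt2, at 68.6 to 315 FPKM in KO and 338 to 881 in treated colon (log2 1.98, SE 0.536, adjusted p = 0.346). None of 5 magnesium transport genes passed, with log2 differences between -0.17 and 0.10.

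Several acute phase genes rose in treated colon. Of 15 tested genes of the acute phase and Stat3 list 4 rose, none fell, and the median log2 difference was 0.98 against -0.01 over all genes. Saa3, an inducible serum amyloid A, was at 3.59, 4.65, 7.36 and 3.94 FPKM in KO and at 82.3, 47.3 and 69.1 in treated colon (log2 3.64, SE 0.279, adjusted p = 0.00138). Saa1, of the same list and 24.8 kb from Saa3, was far more abundant, and its groups overlapped. It averaged 587 FPKM in KO and 562 in treated colon (log2 -0.05, adjusted p = 0.974). Haptoglobin, Hp, which binds free haemoglobin, was at 12.3, 6.17, 10.4 and 2.64 FPKM in KO and at 183, 82.3 and 109 in treated colon (log2 4.01, SE 0.493, adjusted p = 0.018). Lrg1, a secreted leucine-rich glycoprotein, was at 5.08, 4.91, 5.72 and 3.03 FPKM in KO and at 45.7, 33.2 and 63.4 in treated colon (log2 3.19, SE 0.275, adjusted p = 0.00287). In Saa3, Hp and Lrg1 the lowest treated library was over 5 times the highest KO library. Socs3, the feedback inhibitor of Stat3 signalling, was at 4.42 to 5.42 FPKM in KO and at 12.7, 13.02 and 18.03 in treated colon (log2 1.44, SE 0.18, adjusted p = 0.0193). Saa3 and Lrg1 passed in all 7 fits that left out 1 library, Hp in 4 and Socs3 in 3.

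Chemokine genes showed a like lean. Of 18 tested 15 were higher, 2 rose and none fell, with a median log2 difference of 1.15. Ccl2, a monocyte chemoattractant (11:81849073-81850955), was at 1.36, 1.61, 1.90 and 1.39 FPKM in KO and at 15.2, 19.6 and 29.1 in treated colon (log2 3.36, SE 0.24, adjusted p = 0.00104). Ccl7, a related chemokine 8.3 kb from it (11:81859214-81861027), was at 1.15, 1.16, 1.93 and 1.70 FPKM in KO and at 8.70, 11.4 and 21.1 in treated colon (log2 2.77, SE 0.311, adjusted p = 0.0118). The next chemokines of that cluster, looked at after the pair, were Ccl12, at 2.04 FPKM on average in KO and 9.74 in treated colon (log2 2.07, adjusted p = 0.0543), and Ccl11, at 14.5 and 32.9 (log2 1.08, adjusted p = 0.366). Both had separate groups and neither passed. Ccl8, further along the cluster, was at 31.3 and 81.9 FPKM with overlapping groups (log2 1.22, adjusted p = 0.556). Ccl20 (log2 1.55, adjusted p = 0.310) and Cxcl13 (log2 1.32, adjusted p = 0.307), which attract lymphocytes, also had separate groups without passing.

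Genes known from myeloid cells were among those that rose. Tyrobp, the signalling adaptor of myeloid receptors, was at 19.5, 19.9, 18.4 and 16.3 FPKM in KO and at 51.1, 46.5 and 42.4 in treated colon (log2 1.31, SE 0.151, adjusted p = 0.0132). Retnlg, a resistin-like protein of bone marrow and neutrophils (16:48872721-48874611), was at 0.900, 0.917, 0.757 and 0.682 FPKM in KO and at 8.23, 6.91 and 8.22 in treated colon (log2 2.66, SE 0.188, adjusted p = 0.00104). Retnlg kept its call in all 7 fits that left out 1 library. Through treated colon alone it reached the level filter, and it could pass only as higher. Ifi204, of the interferon-inducible DNA-sensing family (log2 2.06, SE 0.272), Ifitm6, an interferon-induced membrane protein (log2 1.98, SE 0.292), and Hmox1, the haem-degrading oxygenase (log2 1.60, SE 0.238), rose at adjusted p = 0.0246, 0.0428 and 0.0438. These calls were weaker: Ifi204 and Ifitm6 each passed in only 1 of the 7 fits that left out 1 library, Hmox1 in 2 and Tyrobp in 3. Ifitm6, like Retnlg, reached the level filter through treated colon alone. None of 15 genes of a general interferon list passed, although 12 were higher. Isg15, a ubiquitin-like interferon product, was at 46.7 to 99.2 FPKM in KO and at 274, 129 and 77.8 in treated colon, so that the groups overlapped (log2 1.05, adjusted p = 0.671). Ifit1 overlapped as well (log2 0.98, adjusted p = 0.691).

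Markers of other cell types moved beside these genes. The 9 tested macrophage and myeloid markers, Tyrobp among them, summed to 136 to 152 FPKM in KO and 213 to 342 in treated libraries. Of the 9, 8 were higher and 4 lay wholly higher, against 4.16% of all genes tested that lay wholly higher. Besides Tyrobp none passed: the complement component C1qb had a log2 difference of 0.90 (adjusted p = 0.223) and the integrin Itgam of 1.35 (adjusted p = 0.290). Neutrophil markers summed to 3.74 to 5.17 FPKM in KO and 10.3 to 118 in treated libraries, chiefly through the calprotectin gene S100a8. It was at 0 to 0.781 FPKM in KO and at 5.96, 100.5 and 60.7 in treated colon (log2 5.35, SE 0.851, adjusted p = 0.0567). S100a9, the partner subunit, was at 0 in Colon treated 1 and at 13.6 and 7.97 in Colon treated 2 and 4. Of the 3 neutrophil markers tested, all were higher by their log2 means, but only 1, S100a8, lay wholly higher. The receptor Cxcr2 overlapped between the groups. It was at 2.98 to 4.36 FPKM in KO and 3.24 to 5.38 in treated colon, each group scaled with the uninjected libraries. The part of these markers in the rise of the myeloid, chemokine and acute phase genes was not tested. In whole-tissue RNA more cells of a type and more RNA per cell cannot be told apart.

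A further set of genes that rose encodes extracellular proteins. Spp1 (osteopontin) was at 0.468, 2.12, 0.174 and 0 FPKM in KO and at 9.44, 16.3 and 13.2 in treated colon (log2 3.78, SE 0.529, adjusted p = 0.0325). Its KO libraries were spread near the added 0.5, and the call was kept in only 1 of the 7 fits that left out 1 library. Timp1, an inhibitor of matrix metalloproteinases, was at 2.60 to 4.42 FPKM in KO and at 17.5, 45.3 and 47.9 in treated colon (log2 3.05, SE 0.358, adjusted p = 0.0134). Cthrc1, a secreted collagen-repeat protein (log2 2.18, SE 0.251, adjusted p = 0.0132), and Col8a1, a chain of collagen VIII (log2 1.79, SE 0.209, adjusted p = 0.0134), rose too. Spp1 and Cthrc1 reached the level filter through treated colon alone and could pass only as higher. The 6 fibroblast markers were higher in treated colon by their means, with sums of 281 to 350 FPKM in KO and 298 to 1100 in treated libraries. Colon treated 2 set the upper end, with 626 FPKM of the collagen gene Col1a2 against 41.5 to 64.0 in the other 6 libraries. The part of fibroblast RNA in these rises was not tested.

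The other genes that rose had no place in a list, apart from Selenbp2. Abhd1, of the alpha/beta hydrolase family, was at 0, 0, 1.19 and 0 FPKM in KO and at 36.3, 32.8 and 19.0 in treated colon (log2 5.41, SE 0.474, adjusted p = 0.00287). It overlaps Preb on the other strand, which did not pass (log2 -0.18, adjusted p = 0.849). AI506816 was at 0, 0.0169, 0 and 0.0419 FPKM in KO and at 14.6, 4.32 and 12.4 in treated colon (log2 4.25, SE 0.391, adjusted p = 0.00352). 5033404E19Rik was at 7.66, 11.3, 5.93 and 8.37 FPKM in KO and at 172, 143 and 162 in treated colon (log2 4.21, SE 0.218, adjusted p = 0.000163). Neither of these transcripts was matched by symbol to the mm9 annotation. Selenbp2, a selenium-binding protein, was at 7.39, 6.10, 7.10 and 3.64 FPKM in KO and at 57.6, 39.3 and 44.9 in treated colon (log2 2.89, SE 0.259, adjusted p = 0.00313). Its close relative Selenbp1 was far more abundant, at 799 to 1506 FPKM in KO and 572 to 1023 in treated colon, and did not pass (log2 -0.51, adjusted p = 0.768). Plcd1, a phospholipase C of the delta class, was 0 in every KO library and reached 2.91, 4.43 and 2.35 FPKM in treated colon (adjusted p = 0.00515). Without Colon treated 2 it was under the level filter. Plcd1, AI506816 and Abhd1 reached that filter through treated colon alone and could pass only as higher. The size of their log2 differences depends on the added 0.5.

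Among the 9 genes that fell, Retnlb had the largest change. Retnlb, a resistin-like product of goblet cells (16:48816969-48819004), was at 2567, 1622, 2111 and 1439 FPKM in KO and at 69.9, 313 and 252 in treated colon. It fell by 3.41 on the log2 scale (SE 0.5, adjusted p = 0.0422), and kept its call in 2 of the 7 fits that left out 1 library. Retnlg, which rose, lies 53.7 kb from it on the same strand. Retnla, between them, was at 15.3 FPKM on average in KO and 10.7 in treated colon and did not pass (log2 -0.55, adjusted p = 0.689). Each of the 12 goblet cell genes had a lower mean in treated colon, with a median of -0.71, and only Retnlb passed. Of the 12, 5 lay wholly lower, against 3.89% of all genes tested. All 8 epithelial markers were lower too, at a median of -0.41, and their part in the goblet cell values was not tested. Nearest to the threshold were Clca3, a mucus-associated protein, at 3839 to 5414 FPKM in KO and 556, 597 and 1701 in treated colon (log2 -2.41, SE 0.405, adjusted p = 0.0662), and the mucus protein Fcgbp (log2 -1.38, SE 0.271, adjusted p = 0.123). Spink4, a goblet cell peptide, followed (log2 -1.61, adjusted p = 0.158).

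Secreted defence genes went both ways. Of 17 tested antimicrobial genes 10 were higher and 7 lower, at a median log2 difference of 0.33, and only Sprr2a1, a small proline-rich protein, passed. Of the 17, 7 lay wholly higher and 4 wholly lower, against 4.16% and 3.89% of all genes tested. Ang4, an angiogenin ribonuclease of Paneth and goblet cells, was at 3473, 2357, 2687 and 1459 FPKM in KO and at 46.5, 307 and 237 in treated colon, short of the threshold (log2 -3.98, SE 0.627, adjusted p = 0.0543). Its relative Ang3 was at 5.70 to 7.92 FPKM in KO and at 0.0645, 1.49 and 1.16 in treated colon (log2 -2.59, SE 0.415, adjusted p = 0.0567). Reads of these similar genes may be shared. Reg4, a lectin of goblet and enteroendocrine cells, was at 420 to 869 FPKM in KO and at 145, 193 and 113 in treated colon (log2 -1.96, SE 0.304, adjusted p = 0.0527). Each of these had separate groups and stood just outside the threshold. Reg3b, a bactericidal lectin looked at outside the rule for named genes, was at 142, 541, 448 and 208 FPKM in KO and at 7586, 799 and 2650 in treated colon (log2 3.12, SE 0.761, adjusted p = 0.264). Reg3b was thus separate between groups but spread almost 10-fold among treated libraries.

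Both small proline-rich genes of the chromosome 3 cluster that were tested beside Sprr1a fell. Sprr2a1 was at 1597, 1443, 1527 and 1126 FPKM in KO and at 502, 323 and 318 in treated colon (fell by 1.92 on the log2 scale, SE 0.244, adjusted p = 0.0201). Sprr2b, 94.2 kb away, was at 10.4, 9.49, 9.78 and 6.17 FPKM in KO and at 1.91, 0.378 and 0.707 in treated colon (fell by 2.77, SE 0.353, adjusted p = 0.0202). These genes too are close copies of each other. Sprr1a overlapped between the groups (log2 0.31, SE 0.431). Hsd3b3, a steroid dehydrogenase, was at 174, 120, 201 and 124.8 FPKM in KO and at 26.3, 18.5 and 24.4 in treated colon (fell by 2.70, SE 0.236, adjusted p = 0.00287). It was the only gene of those that fell to keep its call in all 7 fits that left out 1 library. Hsd3b2, a similar gene 16.9 kb from it, was at 7.29 to 14.1 FPKM in KO and at 2.00, 0.587 and 0 in treated colon, short of the threshold (log2 -3.24, SE 0.507, adjusted p = 0.0543). The other 8 of 10 tested steroid metabolism genes did not pass.

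Annexin, calpain, deacetylase and deadenylase genes were among the others that fell. Anxa13, an epithelial annexin, was at 42.6, 44.8, 48.2 and 36.5 FPKM in KO and at 14.8, 10.2 and 13.6 in treated colon (fell by 1.72, SE 0.183, adjusted p = 0.00944). Capn9, a calpain of the digestive tract, was at 30.9 to 37.3 FPKM in KO and at 15.4, 17.5 and 15.8 in treated colon (fell by 1.08, SE 0.146, adjusted p = 0.0285), with tight groups on both sides. Anxa13 kept its call in 5 of the 7 fits that left out 1 library, and Capn9 in only 2. These were the 2 of 17 annexins and calpains that passed. Capn13 and Capn8 overlapped between the groups (log2 -1.69 and -0.94, adjusted p = 0.421 and 0.597). Aadac, a deacetylase of the endoplasmic reticulum and the only 1 of 19 genes of the P450 and xenobiotic list to pass, was at 23.3 to 37.9 FPKM in KO and at 4.38, 10.2 and 6.42 in treated colon (fell by 2.06, SE 0.283, adjusted p = 0.0298). Ccrn4l (nocturnin), a deadenylase tied to the circadian clock, was at 22.6 to 30.3 FPKM in KO and at 5.72, 10.1 and 9.24 in treated colon (fell by 1.61, SE 0.224, adjusted p = 0.0311). The other 15 of 16 clock genes did not pass, the nearest being the repressor Bhlhe41 (log2 1.08, adjusted p = 0.421). D330028D13Rik (RefSeq symbol Fam221a) fell by 1.40 (SE 0.201, adjusted p = 0.0373). Aadac, Ccrn4l and D330028D13Rik each kept their call in only 1 of the 7 fits that left out 1 library.

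Several lists were uneven in direction with no member past the threshold. Of 24 colonocyte ion and water transport genes 4 were higher and none passed. Sgk1, the kinase that activates the epithelial sodium channel, was at 113 to 147 FPKM in KO and at 63.0, 50.6 and 69.5 in treated colon (log2 -1.04, SE 0.179, adjusted p = 0.0683). The channel subunit Scnn1a had a log2 difference of -0.87 (adjusted p = 0.327), and the water channel Aqp4 of -1.85 with overlapping groups (adjusted p = 0.589). Of 18 cholesterol synthesis genes 1 was higher, at a median of -0.42, led by Dhcr7 (log2 -0.64, adjusted p = 0.292) and Sc4mol (log2 -0.58, adjusted p = 0.443). Of 15 cell cycle genes 14 were higher, at a median of 0.5, with Ccna2 nearest (log2 0.54, adjusted p = 0.679). Of 15 tight junction genes 3 were higher and none passed. Over all genes tested 6131 of 12505 were higher.

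**Figure D2:**
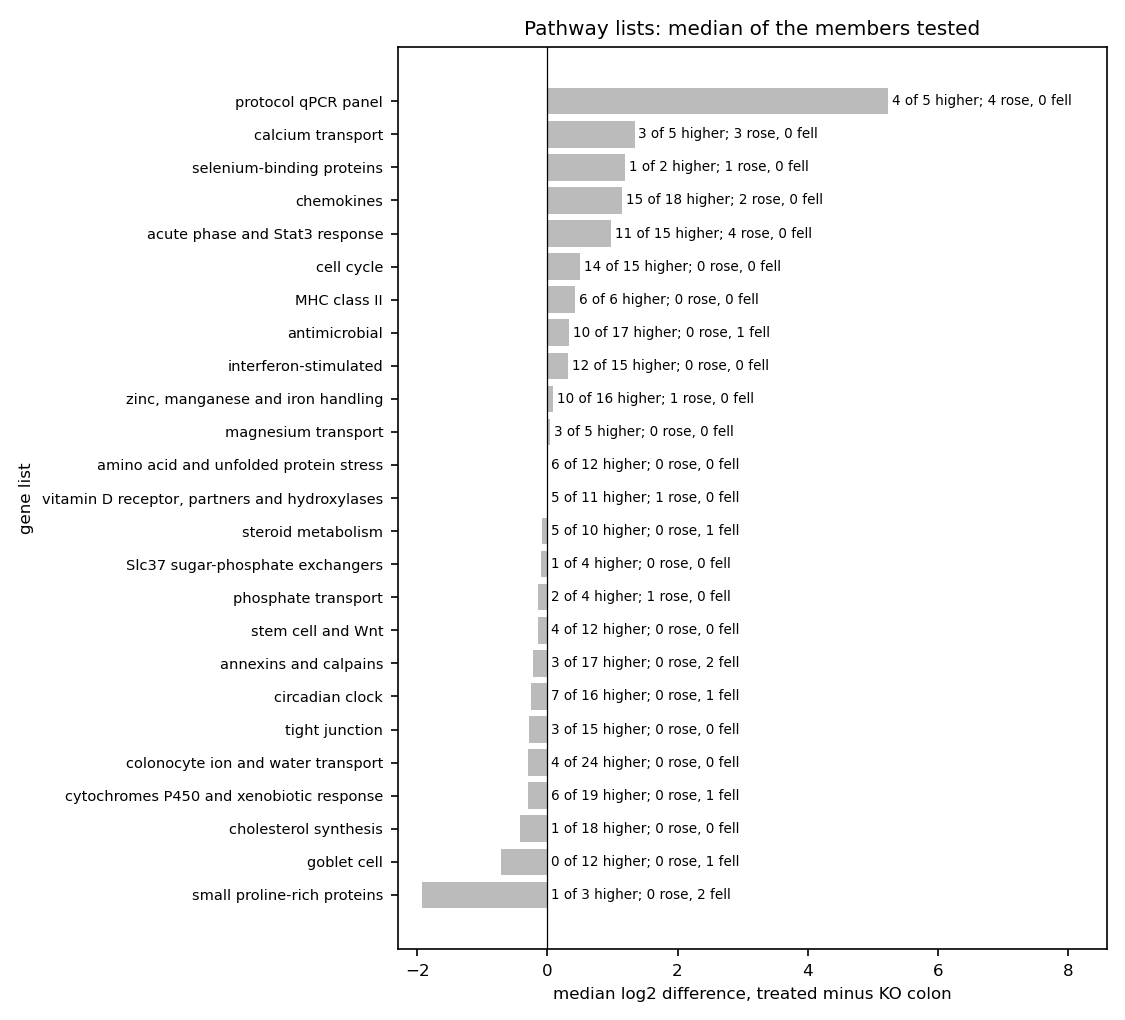
Median log2 difference (treated minus KO colon) of the tested members of each of 25 pathway lists, with the number of members that were higher and that passed the test in each direction. The qPCR panel and calcium transport lists have the highest medians and the small proline-rich and goblet cell lists the lowest.

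The tissue is labelled as intestinal epithelium, and the 8 epithelial markers summed to 10600 to 14400 FPKM in KO and 7810 to 12600 in treated libraries. The sums overlapped, but all 8 had a lower log2 mean in treated colon, at a median of -0.41, and none passed. Markers of the muscle wall were present as well. The 7 smooth muscle markers summed to 2280 to 3210 FPKM in KO and 1370 to 1710 in treated libraries. Of the 7, 6 lay wholly lower in treated colon, against 3.89% of all genes tested. Actg2, enteric smooth muscle actin, was at 530 to 688 FPKM in KO and at 349, 288 and 343 in treated colon (log2 -0.96, SE 0.188, adjusted p = 0.122). Tuft cell marker sums were lower as well, at 15.6 to 17.4 FPKM in KO and 12.2 to 14.5 in treated libraries, though small. Enteric neuron and glia marker sums overlapped, at 37.5 to 54.8 FPKM in KO and 31 to 183 in treated libraries. Of the 7 tested, 5 were higher and 2 lower, at a median of 0.15, and none passed. Only 1 lay wholly higher, the glial filament Gfap (log2 1.11, SE 0.190, adjusted p = 0.0683). The 14 pancreatic acinar genes summed to 43900 FPKM in Colon KO 2 and 24700 in Colon treated 4, against 76.7 to 885 in the other 5 libraries. Without those 2 libraries 14 genes passed, 13 of them among the 37. The part of the differing tissue makeup in the called genes was not tested.

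**Figure D3:**
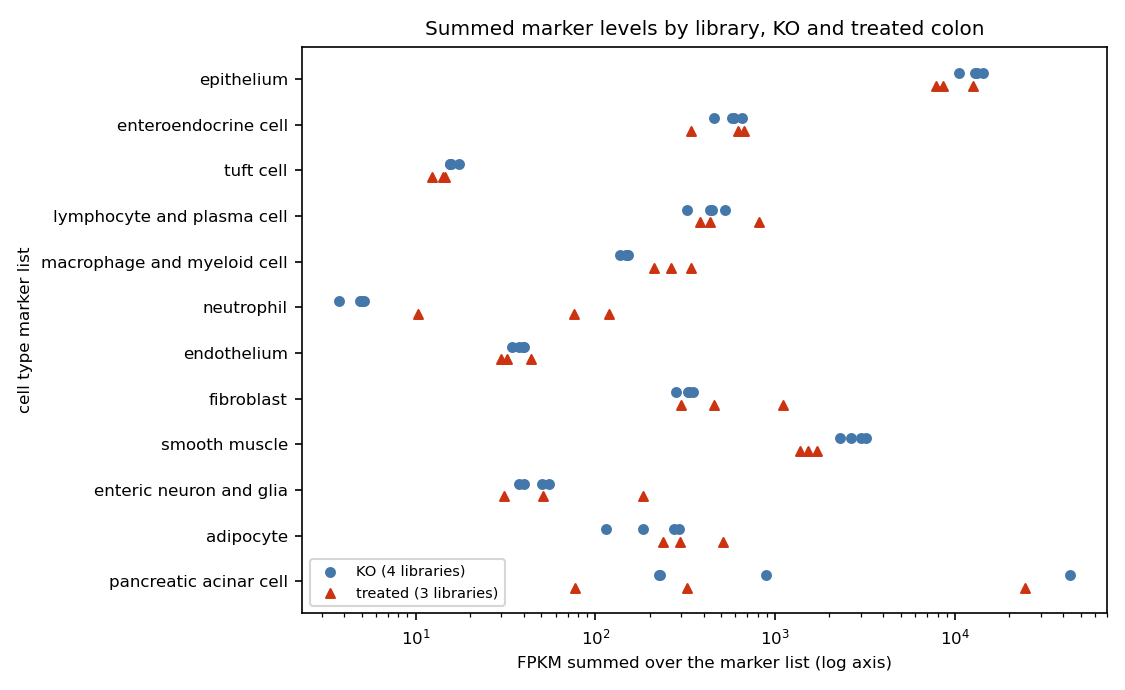
FPKM summed over each of 12 cell type marker lists on a log axis, for the 4 KO libraries (circles) and the 3 treated libraries (triangles). Myeloid and neutrophil sums are higher and smooth muscle and tuft cell sums lower in all 3 treated libraries, and 1 library of each group (43900 and 24700 FPKM) lies far above the others for acinar genes.

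Values in uninjected transgenic colon were set beside those above. The comparison shares the treated libraries with the one described here, so the values are given side by side only. Treated against uninjected colon gave 0 calls among 12567 genes by limma, with 143 at an unadjusted p under 0.05. Uninjected against KO colon gave 10 of 12437 (0.0804%), Trpv6, S100g, Slc34a2, Slc30a10, Selenbp2 and Anxa13 among them. Trpv6 was at 379, 134, 236.5 and 75.7 FPKM in uninjected colon and overlapped with the treated libraries, at 219, 365 and 251 (log2 0.64, SE 0.529). S100g overlapped too, at 1954 to 27300 FPKM uninjected and 8949 to 25120 treated (log2 1.33, SE 0.855). Some genes were as high without injection. Selenbp2 was at 55.5, 45.6, 46.9 and 64.0 FPKM in uninjected colon and at 54.5, 37.0 and 42.8 in treated colon in that table (log2 -0.24, SE 0.275). Abhd1 was at 1.66, 44.4, 28.3 and 23.0 FPKM uninjected and at 34.3, 30.9 and 18.1 treated, with Colon uninjected 1 alone low. Plcd1, at 7.57, 5.98, 3.35 and 0 FPKM uninjected, and 1700034O15Rik, at 2.02, 0.694, 6.89 and 0.204, also overlapped with the treated libraries. Anxa13 was already low, at 9.30 to 14.9 FPKM uninjected against 13.97, 9.58 and 12.9 treated (log2 -0.01, SE 0.289). Retnlb was spread from 142 to 1999 FPKM over the uninjected libraries and overlapped with the treated ones.

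Other genes lay wholly higher in the treated libraries than in the uninjected ones, as 129 (1.03%) of all genes did, without passing. Ccl2 was at 1.27, 2.17, 5.25 and 1.57 FPKM uninjected and at 14.4, 18.5 and 27.7 treated (log2 2.87, SE 0.45, adjusted p = 0.530). Ccl7 was at 0.847 to 2.62 FPKM uninjected and at 8.23, 10.8 and 20.1 treated (log2 2.56, SE 0.413, adjusted p = 0.530). Retnlg was at 0.134, 0.572, 0.802 and 0.807 FPKM uninjected and at 7.78, 6.51 and 7.84 treated (log2 2.92, SE 0.372, adjusted p = 0.171). For all 3 of these genes the uninjected values overlapped the range of KO colon given above, which was read from a table scaled apart. Saa3 (log2 2.25, SE 0.496), Lrg1 (log2 2.18, SE 0.422), Socs3 (log2 1.03, SE 0.265) and Tyrobp (log2 1.04, SE 0.39) also had separate groups. Hp was at 8.19, 3.71, 76.6 and 9.06 FPKM uninjected against 173, 77.5 and 104 treated, so that Colon uninjected 3 nearly reached the lowest treated library. 5033404E19Rik was intermediate, at 46.9, 32.7, 90.9 and 32.1 FPKM uninjected and at 163, 135 and 154 treated (log2 1.69, SE 0.392). Cyp24a1, at 0 to 1.20 FPKM uninjected and 28.7, 21.6 and 8.43 treated, had the largest of these differences (log2 4.54, SE 0.562, adjusted p = 0.171). Most uninjected libraries were labelled female and the treated ones male, and sex and injection cannot be told apart here.

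**Figure D4:**
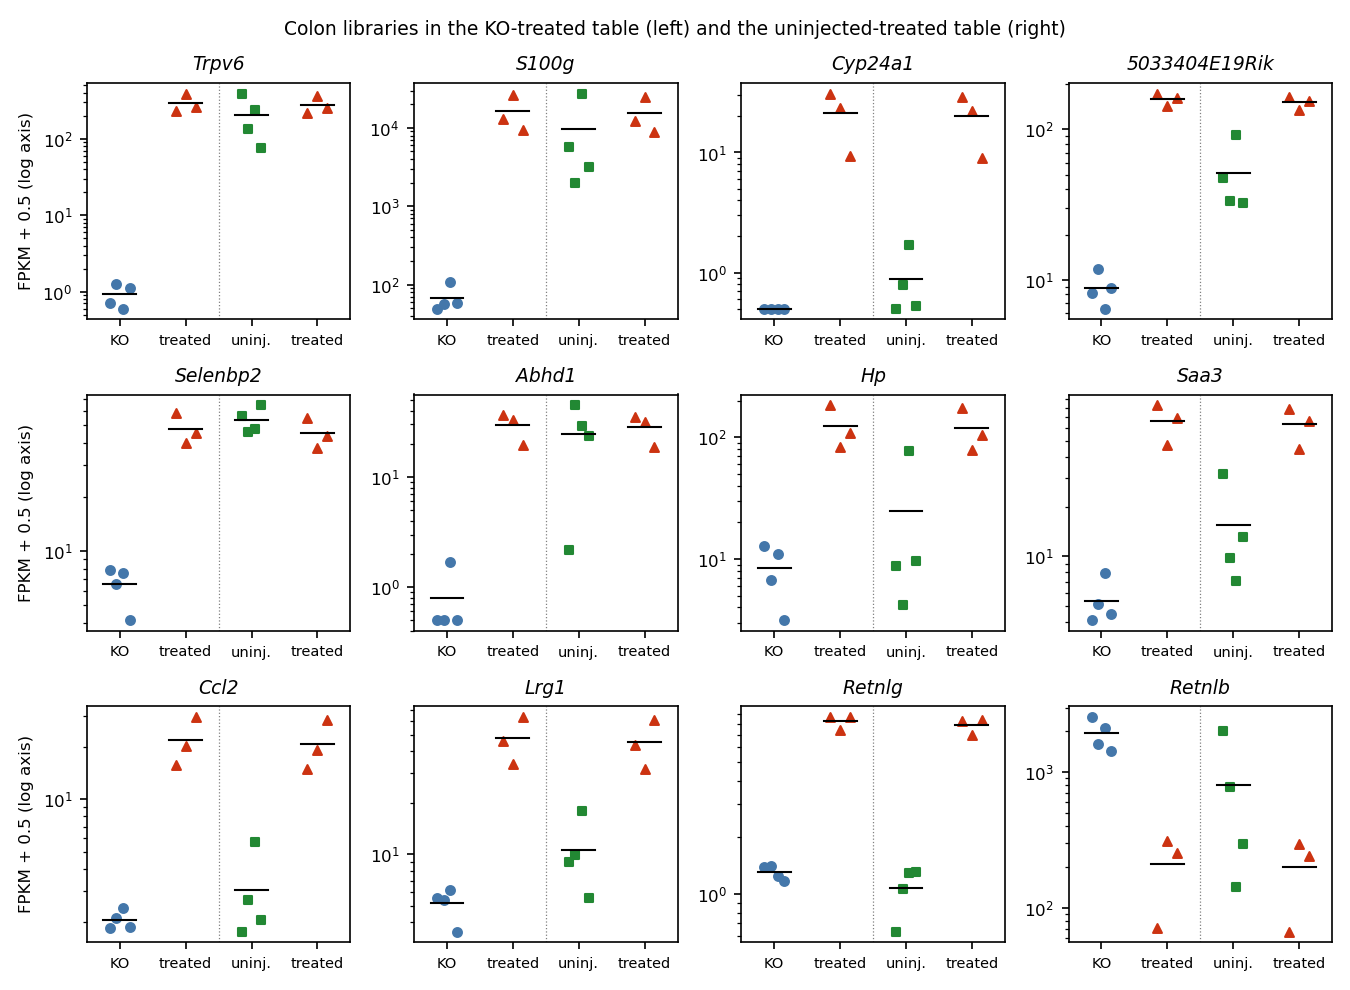
FPKM plus 0.5 on a log axis for 12 genes, with KO (circles) and treated (triangles) libraries from 1 deposited table left of the dotted line, and uninjected (squares) and treated libraries from another table right of it; bars are group means of the plotted values. For Trpv6, S100g, Selenbp2 and Abhd1 the uninjected libraries overlap with the treated ones, whereas for Ccl2, Lrg1 and Retnlg all 4 lie under the 3 treated libraries.

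In the ileum the same contrast was read in other libraries, and the labels do not say whether colon and ileum came from the same mice. Of the 37 genes 32 were tested there, and 6 passed in the same direction (0.0835% of 11974 genes passed in either direction). These were S100g, Cyp24a1, AI506816, 5033404E19Rik and Timp1, which rose, and Hsd3b3, which fell. With the replicate number as a block, which leaves out Ileum KO 3, all 6 passed. Abhd1 then passed as well (log2 5.29, SE 0.38, adjusted p = 0.00328 against 0.0715 without the block). So did Hp (log2 4.08, SE 0.443, adjusted p = 0.019 against 0.304). No label says what libraries of equal number share, so these 2 are not counted as passing. In the colon the same block gave 18 calls against 37. Of the 23 tested genes that rose in the colon 19 lay wholly higher in treated ileum (3.03% of all genes did), and of the 9 that fell 4 lay wholly lower (1.97%). Hsd3b3 was at 11.5, 15.1, 26.4 and 14.5 FPKM in KO ileum and at 0.4496, 0.143 and 0.608 in treated ileum (fell by 4.24, adjusted p = 0.00206, limma). AI506816 was at 0 to 0.0366 FPKM in KO ileum and at 7.73, 9.21 and 12.8 in treated ileum (log2 4.31, adjusted p = 0.00071). Both genes thus passed in both tissues. 5033404E19Rik was at 0 to 0.225 FPKM in KO ileum and at 8.90, 22.1 and 81.6 in treated ileum (log2 5.54, adjusted p = 0.0148), and Timp1 was at 1.66 to 5.07 and at 21.7, 15.3 and 21.9 (log2 2.58, adjusted p = 0.0422).

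The difference of the effects itself passed for 2 of 12884 genes (0.0155%), both smaller in the ileum: Trpv6 and its neighbour 1700034O15Rik. Trpv6 was at 0.138, 0.104, 0.147 and 0.168 FPKM in KO ileum and at 1.08, 0.571 and 3.35 in treated ileum. Its effect was smaller there than in the colon by a log2 value of -6.81 (SE 0.542, adjusted p = 7.88e-05). Trpv6 was under the level filter in the ileum and entered this fit through treated colon alone. The added 0.5 understates its ileum change. 1700034O15Rik was listed at 0 in 6 ileum libraries and at 0.0716 FPKM in Ileum treated 4 (difference -3.28, SE 0.284, adjusted p = 0.000117). It reached the level filter through treated colon alone, so this difference restates its colon value of 3.34 and is no separate measurement in the ileum. S100g, by contrast, was at 23.5, 24.1, 31.7 and 20.7 FPKM in KO ileum and at 425, 898 and 1543 in treated ileum, and its difference between tissues did not pass (-2.79, SE 0.61, adjusted p = 0.306). Slc34a2 was at 98.0 to 197 FPKM in KO ileum and at 126, 173 and 141 in treated ileum, with overlapping groups, and the difference between tissues did not pass (-2.18, SE 0.395, adjusted p = 0.165). Selenbp2 (difference -2.10, SE 0.4) and Retnlb (difference 4.18, SE 0.79), also at adjusted p = 0.165, did not pass. Cthrc1 (difference -1.97, SE 0.334) and Reg4 (difference 2.81), both at adjusted p = 0.121, came nearest. Cthrc1 too was under the level filter in the ileum.

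**Figure D5:**
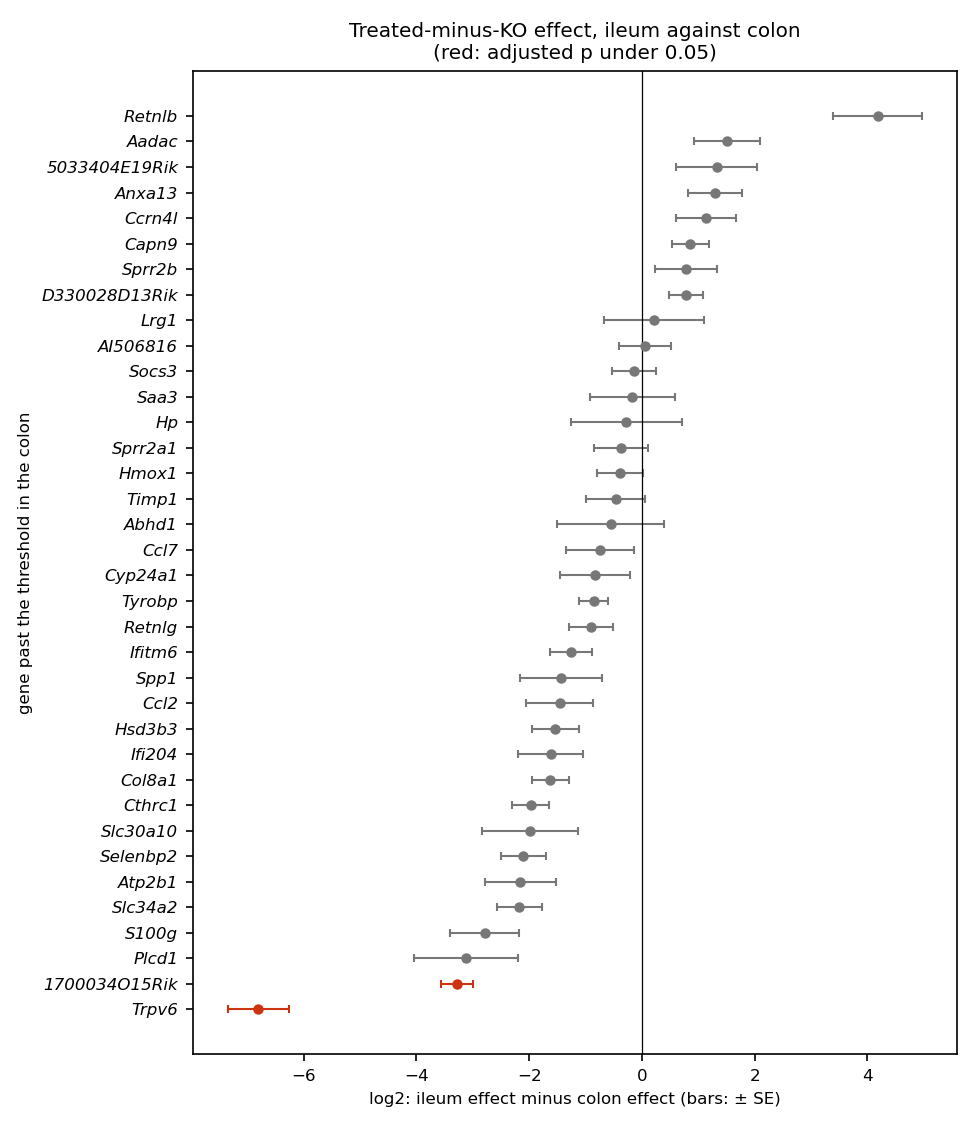
Log2 effect of treated minus KO in the ileum minus that in the colon, with its SE, for 36 of the 37 genes that passed in the colon. Trpv6 at -6.81 and 1700034O15Rik at -3.28 (red) are the 2 that passed the test of the difference, and the genes in grey did not. Trpv6 and 1700034O15Rik were under the level filter in the ileum.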

How the data were processed

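The authors deposited FPKM for 21441 genes in tables that each hold 2 groups of 1 tissue. The authors mapped reads of poly(A)-selected libraries in CLC Genomics Workbench, as stated per the labels' protocols; besides mm9, the tools listed in the submitters' processing notes, which give no roles, are DESeq2, DESeq 1.14.0 and kallisto 0.45.0. For annotation, strand and filters nothing is stated. Each table was scaled over its own libraries by the authors, so tests were made within a table, except the tissue difference and the fit of 3 groups. The 13 columns of 2 uninjected ileum tables were not used. Treated columns numbered 1, 2 and 4 carry no sample of their own and are named by that number. For the colon, the series' design text has 3 uninjected and 4 treated samples; the labels and columns, used here, have 4 and 3. A total of 25 symbols are written as dates.

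Tests used limma 3.58.1 in R 4.3.3, two-sided, with an intensity trend in the prior, on log2(FPKM + 0.5) for genes averaging 1 FPKM or more, with Benjamini-Hochberg adjustment over all genes tested and a threshold of 0.05. The added 0.5 understates changes of low genes. The tissue difference is an interaction in 1 fit of 4 groups. The fit was tested on simulated data. Whole reads were worked out from the FPKM steps (85.17% of 18251 genes whole at a tolerance of 0.01, 2661 more approximate) and served for depth and for voom only. No label says what treated and KO libraries of equal number share. Their deviations correlated at 0.382, -0.052 and 0.218 in the colon and at 0.227, 0.113 and 0.505 in the ileum. These ranges overlap and do not show whether equal numbers pair libraries in either tissue, so the replicate block is an alternative only.

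The members and the 37 gene lists (431 entries, 425 found, 1 by an older symbol) were chosen with earlier results of these data known. Named genes are the qPCR panel, Vdr and Rxra, every gene past the threshold (1 of the 37 is counted but not reported here), up to 4 members per pathway list by p, up to 3 per marker list, and for the tissue difference up to 5 in each direction; neighbours within 100 kb, Reg3b and the genes at the filter's edge were added after their values were seen. Alternatives were other pseudocounts, filters, scalings, covariates, a replicate block, voom, and leaving out libraries. Gene coordinates are mm9, matched by symbol; promoter sequences are RefSeq's on GRCm38.p6. Tables and plots used Python 3.11.15, numpy 2.4.6, pandas 2.3.3 and matplotlib 3.10.9.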

Additional observations from a re-analysis of the deposited data

Results flagged for a closer look

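In the colon, the treated-minus-KO effects of Trpv6 and 1700034O15Rik differed from those in the ileum by the interaction test, with ileum-minus-colon differences of -6.81 and -3.28 on the log2 scale. The second restates the colon value, since 1700034O15Rik was at or near 0 in the ileum.

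Single libraries stood apart in groups of 4, where such a gap arises by chance in about 1 of 20 groups of normally spread values. FPKM need not be spread so, and where the other 3 values are 0 any value above 0 stands apart. Many genes and all marker lists were scanned, so some of these gaps can be due to chance. In KO colon, Colon KO 3 was high for S100g (106.6 FPKM against 48.7 to 57.0 in the other 3), for Abhd1 (1.19 against 0) and for Cthrc1 (1.11 against 0.597 to 0.664). Colon KO 1 was high for the cytochrome P450 gene Cyp2s1 (59.4 against 53.7 to 54.6 FPKM). Colon KO 2 was high for the summed tuft cell markers (17.4 against 15.6) and for the summed acinar markers (43920 against 225 to 885 FPKM). In uninjected colon, Hp stood at 76.6 FPKM in Colon uninjected 3 against 3.71 to 9.06. In KO ileum, Cyp24a1 was at 0.0124 FPKM in Ileum KO 4 and at 0 in the others, and 5033404E19Rik at 0.225 in Ileum KO 3 against 0 to 0.0378.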

How the results depend on the processing

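Of 37 calls in treated against KO colon, 3 genes (Trpv6, S100g and 5033404E19Rik) kept theirs in every setting in which they were tested, of up to 13. With 1 library left out, 14 genes kept theirs in every fit in which they were tested. Plcd1, 1 of the 14, was tested in only 6 of these 7 fits. The count was 21 with 3 colon groups in 1 fit (18 of the 37), 18 with a replicate block (16 of the 37), 3 with age as a covariate (1 KO library), 66 with the GC and length trend removed (31 of the 37), and 14 without Colon KO 2 and Colon treated 4, an alternative chosen after seeing the data. It was 33 to 48 under the other settings. With 1 library left out it ran from 17 to 49: 17, 17, 24 and 19 without Colon KO 1, 2, 3 or 4 and 39, 43 and 49 without Colon treated 1, 2 or 4. Of the 37 calls, 15, 17, 21 and 19 were kept in the former fits and 26, 31 and 28 in the latter. The cause was not tested.

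Treated against uninjected colon gave 5 calls with the replicate block, 4 with 3 groups in 1 fit and, with 1 library left out, 0 to 4 (4 without Colon uninjected 3). Uninjected against KO colon gave 10 calls, 3 with the replicate block and 2 to 68 with 1 library left out (68 without Colon uninjected 4). Treated against KO ileum gave 10, and 3 to 14 with 1 library left out (3 without Ileum KO 1, 2 or 4). The tissue difference gave 1 call with a mean of at least 3 FPKM, which removes 1700034O15Rik, and 2 to 5 with 1 library left out. The replicate block left both calls of the tissue difference in place; in the ileum it gave 11 calls, with 9 of the 10 kept, Acta1 lost (adjusted p = 0.0888) and Abhd1 and Hp gained.

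Direction changed only in genes that did not pass. Rxra ran from -0.19 to 0.37 with 1 library left out and Col1a2 from -0.27, without Colon treated 2, to 1.68. Sprr1a was at -0.79 with age as a covariate. Colon treated 2 had the lowest depth, 12.8 M reads.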
